A study of Homo sapiens and Mus musculus with 24 samples.

Results

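Regions bound by hemogen in wild-type (WT) mouse fetal liver, but lying under no peak of the remodelling ATPase BRG1 and no peak of acetylated histone H3 lysine 27 (H3K27ac), are described here. Peaks of the 2 WT hemogen libraries were merged where they overlapped by at least 1 bp on the 19 autosomes and chromosome X, and 25631 merged regions held a peak of each library. Of these, 4844 (18.9%) overlapped no peak in any of 3 BRG1 lists and 3 H3K27ac lists, and are called unmarked hemogen regions below. Among the others, 2099 (8.19%) held H3K27ac without BRG1, 3065 (12%) BRG1 without H3K27ac and 15623 (61.0%) both. Since the peak lists chose the regions, their hemogen, BRG1 and H3K27ac values are given as a description, with no test.

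The samples of interest were livers of embryos at day 14.5. BRG1 was precipitated from hemogen knockout (KO) livers in 2 libraries, and hemogen, BRG1 and H3K27ac from WT livers in 2 libraries each. Livers labelled WT gave the hemogen libraries through an antibody to the HA tag (ab9110), and BRG1 and H3K27ac were taken with ab110641 and ab4729. Neither the origin of that tag, nor the KO allele, nor any pooling of animals is described, and an HA precipitate of untagged liver was not analysed here. The fetal liver mixes erythroid cells with other types, so binding in few cells and weak binding in many cannot be told apart. The tissue label was not checked against marker genes, because no mouse annotation was used here.

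Hemogen is found in the nuclei of blood-forming cells. BRG1 uses ATP to move nucleosomes as the motor of BAF (SWI/SNF) complexes, and H3K27ac is laid down at active promoters and enhancers. In fetal liver, where red cells form, such remodelling and acetylation accompany the switching on of erythroid genes. A chromatin-bound factor can also be found away from both, and those places are the subject here.

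Values that the authors' peak calling gave are used throughout: a fold enrichment over local background, a −log10 p and a −log10 q per peak. Summit height, the number of fragments covering the highest point of a peak, was recovered from fold and p under an assumed form of the peak caller's formula. Depth differed between lists. Relative to WT BRG1 library 1, the immunoprecipitates came to 0.404 and 0.341 in the KO BRG1 libraries, to 0.721 and 1.02 in the hemogen libraries, and to 1.04 in WT BRG1 library 2. At the median background of its list, a WT BRG1 summit needed 15 fragments in library 1 and 18 in library 2 to reach the weakest p listed, and 20 in the group list. An H3K27ac summit needed 12 and 14 fragments in libraries 1 and 2 and 14 in the group list. An unmarked region can thus hold BRG1 or H3K27ac signal below the heights of its own lists.

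The longer group lists excluded more regions than the library lists did. Used alone, the group lists left 5052 regions unmarked. No library peak of BRG1 or H3K27ac overlapped 7669 hemogen regions, and the group lists took 2825 of these away. At the edge of the rule, 2498 regions were left out for overlapping just 1 of the 6 lists, 1308 of them the BRG1 group list and 985 the H3K27ac group list. Values just inside and just outside the rule were close. The 167 unmarked regions with a BRG1 or H3K27ac peak less than 50 bp away had a median fold of 4.01 and 3.83 in hemogen libraries 1 and 2. The 195 regions left out for an overlap of at most 50 bp had 4.06 and 3.82.

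Unmarked regions were among the weaker and narrower hemogen regions. Each region was ranked by its −log10 p in both hemogen library lists, the mean of the 2 percentiles being its strength, whose median was 42.9 in unmarked regions (range 0.88 to 94.8) and 71.2 in the other hemogen regions. By library, the median percentile of the unmarked regions was 47.8 in library 1 and 40.4 in library 2. Their median fold was 4.11 in library 1 and 4.08 in library 2, against 4.92 and 4.62 at the other hemogen regions. Low fold was shared by H3K27ac regions without BRG1, whose medians were 3.98 and 3.95. The unmarked folds reached 11.1 and 9.08, so they overlapped the upper range of the others. A fold of 6 or more in both libraries was seen at 58 unmarked regions (1.20%) and at 2626 of the other regions (12.6%).

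Summits held fewer fragments at unmarked regions. Each summit held a median of 16 fragments in library 1 (9 to 35, n = 4818 regions with a recovered height) and 21 in library 2 (12 to 49, n = 4624) at unmarked regions. The other hemogen regions had medians of 24 and 30.0 fragments. Median local background was 3.16 and 3.0 scaled fragments at unmarked regions, against 4.08 and 4.0 at the others. A low background was shared by BRG1 regions without H3K27ac (3.27 and 3.12) and H3K27ac regions without BRG1 (3.43 and 3.31). At H3K27ac regions without BRG1, the class nearest in strength with a median percentile of 43.8, the medians were 18 and 23 fragments.

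**Figure D1:**
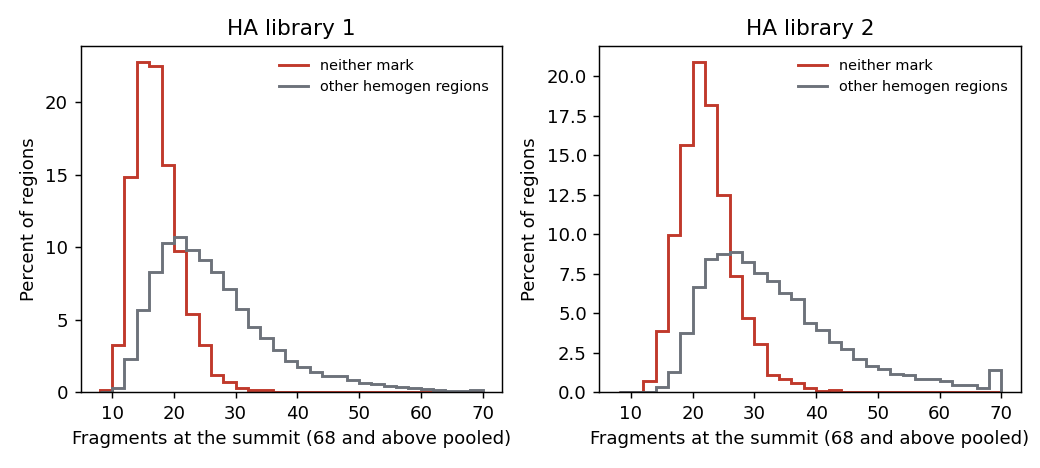
Distribution of summit heights (fragments, x axis, bins of 2 fragments) as a percent of regions (y axis) in HA library 1 (left) and HA library 2 (right), for unmarked regions (neither mark, red) and other hemogen regions (grey). Unmarked regions centre on 16 and 21 fragments, below the medians of 24 and 30.0 of the others, and the distributions overlap.

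Unmarked regions were rarest where hemogen was strongest. When hemogen regions were split by strength into 10 equal bins, they made up 44.5% of the weakest bin (1142 of 2564 regions) and 0.0780% of the strongest (2 of 2563). In bins 5 and 6 the share was 19.8% and 14.5%. With 5 bins, unmarked regions made up 40.8% of the weakest and 0.858% of the strongest. H3K27ac regions without BRG1 thinned out in the same way, at 17.1% and 0.254%, while BRG1 regions without H3K27ac made up 11.9% and 7.57%. Hemogen peaks found in 1 library only were unmarked far more often, at 63.0% of the 22238 regions of library 1 alone and 60.7% of the 9410 of library 2 alone. In the hemogen group list it was 53.0% of 78360 peaks. KO BRG1, described below, overlapped 0.535%, 0.403% and 0.422% of the unmarked regions in these 3 sets, against a background of 3.31%, 3.09% and 11.8% over each whole set.

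**Figure D2:**
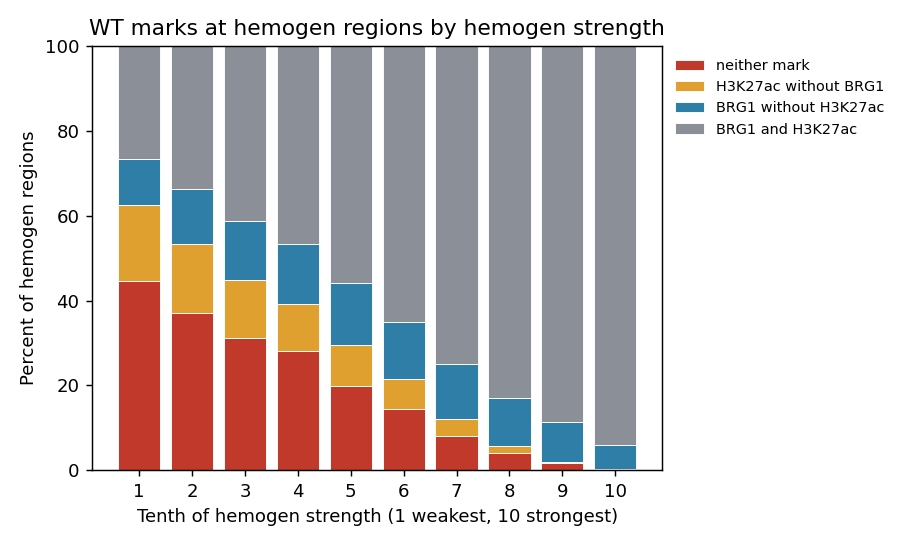
Percent of hemogen regions (y axis) in each class of WT marks for 10 bins of hemogen strength (x axis, 1 weakest to 10 strongest). The unmarked share is 44.5% in bin 1 and 0.0780% in bin 10.

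Unmarked regions were compact. Their median width was 478 bp, against 1008 bp for the other hemogen regions, and 197 of them (4.07%) exceeded 1000 bp, against 50.4% of the others. A single peak in each library made up 92.5% of unmarked regions and 62.0% of the others. The summits of the libraries were also compared. The distance between the 2 summits was a median of 90.0 bp at unmarked regions and 116 bp at the others, and 54.3% and 45.9% lay within 100 bp. Regions with a single mark were also narrow with close summits. Median width and summit distance were 531 and 103 bp at H3K27ac regions without BRG1. At BRG1 regions without H3K27ac they were 650 and 85.0 bp. All 4844 unmarked regions overlapped a peak of the hemogen group list, as did all 25631 hemogen regions, so this sets none apart.

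The order of unmarked regions by −log10 p differed between the hemogen libraries. Across the 4844 unmarked regions, Spearman's rho of −log10 p between libraries was 0.236, and across the 20787 others 0.643. These points are regions of the same 2 libraries, chosen by their peaks, and the unmarked ones span a narrower range. When each list was split into 5 bins, 42 unmarked regions (0.867%) lay in the top bin of library 1 and the bottom bin of library 2, against 1.14% of the others. The opposite was seen for 15 unmarked regions (0.310%) and 0.284% of the others. The top bin of both lists held 93 unmarked regions (1.92%) and 28.5% of the others.

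Among themselves, stronger unmarked regions were wider and had closer summits. Over the 5 strength bins, weakest first, they numbered 2094, 1521, 878, 307 and 44. Median width in these bins was 428, 492, 554, 647 and 748 bp, and the median distance between summits was 99, 93, 75.5, 61 and 57 bp. Median fold in library 1 was 3.56, 4.28, 4.89, 5.65 and 6.84, which follows from how strength was defined. Width and summit distance come from the same peaks that set strength, so they are not independent of it.

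**Figure D3:**
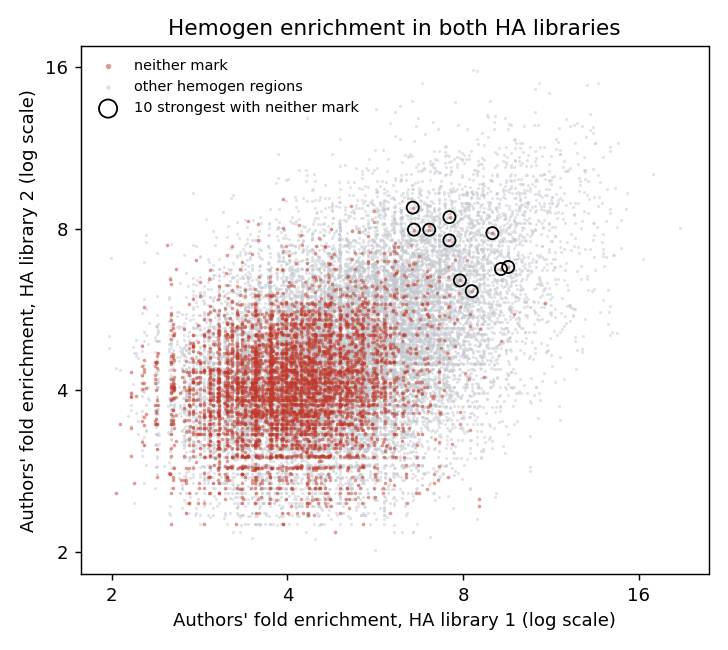
Authors' fold enrichment in HA library 1 (x axis) and HA library 2 (y axis), both on log scales, for unmarked regions (neither mark, red) and other hemogen regions (grey), each point a region. The 10 strongest unmarked regions (rings) have folds of 6.56 to 9.56 in library 1 and 6.12 to 8.76 in library 2.

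The strongest unmarked regions stood well above background in both libraries. Positions count from 1 and carry no gene names. The build is inferred, since contig names and positions are those of mm10 (GRCm38) but no label states it. The first, chr1:132400111-132401806, had folds of 7.58 and 8.41 and 30.0 and 41 fragments at the summit in libraries 1 and 2, over local backgrounds of 3.09 and 2.73. An H3K27ac peak began 400 bp away and the nearest BRG1 peak 8160 bp away. The second, chr16:24199826-24200446, had folds of 6.59 and 7.97 and 35 and 43 fragments. Its summits lay 20 bp apart, and the nearest H3K27ac and BRG1 peaks were 16549 and 28940 bp off.

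The third, chr16:84806145-84806787, had folds of 8.98 and 7.85 and 28 and 32 fragments, with summits 9 bp apart, H3K27ac 27715 bp away and BRG1 27402 bp away. The group list gave it a fold of 9.75, the highest of the 10. The fourth, chr12:71936459-71937144, had folds of 6.56 and 8.76 and lay 564 bp from H3K27ac. At chr7:101697350-101697959 the summits of the 2 libraries fell 1 bp apart, with 34 and 36 fragments. Distance to acetylation varied widely among the strongest, and ran from 383 bp to 104107 bp over the 10.

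The other 5 of the 10 strongest were chr3:19447708-19448309, chr10:93517671-93518467, chr7:75472260-75472783, chr2:168776048-168776804 and chr7:118142963-118144069. Their folds were 7.0 to 9.56 in library 1 and 6.12 to 7.97 in library 2.

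Many unmarked regions lay close to marked chromatin without touching it. The nearest H3K27ac peak was a median of 1872 bp away and the nearest BRG1 peak 9500 bp. An H3K27ac peak lay within 1 kb of 1820 unmarked regions (37.6%) and a BRG1 peak within 1 kb of 1167 (24.1%). Both lay that near in 793, and neither in 2650. BRG1 regions without H3K27ac were nearer to acetylation, with a median of 704 bp and 59.1% within 1 kb. H3K27ac regions without BRG1 were nearer to BRG1, with a median of 3825 bp. The lists that set these distances also chose the classes.

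**Figure D4:**
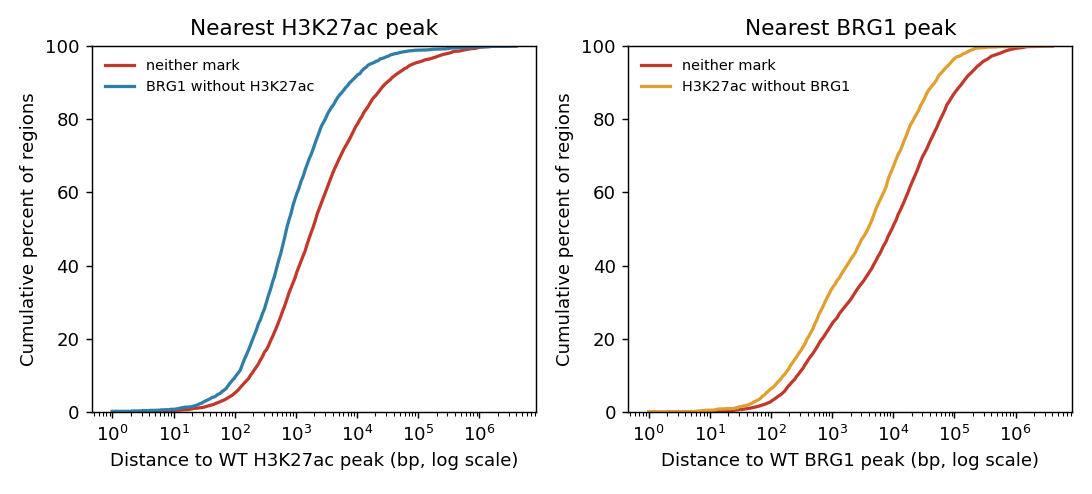
Cumulative percent of regions (y axis) by distance to the nearest WT H3K27ac peak (left) or WT BRG1 peak (right; x axes in bp, log scale), for unmarked regions (red) and the class that lacks the same mark but holds the other one. The red curves lie to the right, with medians of 1872 bp to H3K27ac and 9500 bp to BRG1.

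A smaller set was remote from both marks. No BRG1 or H3K27ac peak lay within 100 kb of 188 unmarked regions, spread over all 20 chromosomes, 6 of them on chromosome X. Their median strength was 44.4, close to the 42.1 of the 2194 unmarked regions within 1 kb of either mark. Fold was slightly higher in the remote set, at 4.50 and 4.36 in libraries 1 and 2, against 3.99 and 4.0 in the unmarked regions within 1 kb of a mark. Summit height was slightly lower, at 15 and 19 fragments in the remote set and 17 and 22 in the near one.

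Leading the remote set was chr3:19447708-19448309, named above, with folds of 9.29 and 6.73, 29 and 35 fragments, and 104107 bp to the nearest H3K27ac peak. About 1 Mb away on the same chromosome, chr3:18428833-18429566 had folds of 7.27 and 6.49 and 22 and 26 fragments, with H3K27ac 568241 bp and BRG1 732172 bp away. Next came chr8:89279525-89280213, with folds of 6.95 and 6.49 and 21 and 26 fragments. The remaining 2 of the 5 strongest were chr2:48404365-48404907 (folds of 7.06 and 6.26) and chr10:100131642-100132095 (5.16 and 7.92).

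Most unmarked regions had no other unmarked region less than 10 kb away, and many had another kind of hemogen region near. The other hemogen regions were also more numerous, at 20787 against 4844. A hemogen region with a mark lay within 1 kb of 1044 (21.6%) and at 1 to 10 kb from 1318 (27.2%). When unmarked regions less than 10 kb apart were linked to one another, 3599 were linked to none and 1245 fell into 554 clusters. The largest cluster held 7 within 9829 bp, at chr11:54533925-54543753, with no other hemogen region between them and the nearest mark 2800 bp away. Its strengths ran from 32.4 to 75.1. Another 7 clusters held 5 each. By chromosome, the share of hemogen regions that were unmarked had a median of 19.9%, a lowest value of 13.8% on chromosome 17 and a highest of 22.7% on chromosome 18. In 102 windows of 1 Mb, unmarked regions were the only hemogen regions.

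The KO BRG1 libraries took no part in choosing the regions, but the rule removed every region with a WT BRG1 peak. The background over all hemogen regions keeps those regions, so a share below it is partly built in. Its regions are also wider, with a median of 840 bp against 478 bp, which leaves more room for a 1 bp overlap. The part of width in the shares was not tested. Few KO BRG1 peaks were called at unmarked regions. A KO BRG1 peak of any list overlapped 43 of the 4844 unmarked regions, or 0.888% (95% exact binomial interval 0.643 to 1.19), against a background of 32.5% over all 25631 hemogen regions. KO library 1 covered 4 of them (0.0826%) against a background of 9.93%, KO library 2 covered 8 (0.165%) against 16.2%, and the KO group list 34 (0.702%) against 31.4%. No unmarked region was covered by both KO libraries, against 6.38% of all hemogen regions. For that count of 0, the exact interval reaches 0.0761%, and 3 counts of the total would be 0.0619%. Intervals and such limits cover counting error over regions, not animals.

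No WT BRG1 peak lies at unmarked regions by the rule, so KO and WT cannot be compared there. The class nearest in strength is the 2099 hemogen regions with H3K27ac but no WT BRG1 peak, with a median strength of 43.8 and a median width of 531 bp. KO BRG1 was called at 120 of these (5.72%, interval 4.76 to 6.80), a difference of -4.83 percentage points for the unmarked regions (95% interval -5.93 to -3.86 by Newcombe's method, over regions). At BRG1 regions without H3K27ac the share was 4.93%, and at regions with both marks 51.4%. The shares were also set side by side at like hemogen strength. In the weakest of the 5 bins KO BRG1 was called at 0.716% of unmarked regions, 5.24% of those with H3K27ac alone, 3.44% of those with BRG1 alone and 24.7% of those with both. The background in that bin was 9.03%. In bin 3 the 4 shares were 1.25%, 5.91%, 5.08% and 45.1%.

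In every strength bin, with backgrounds that again include regions with a WT BRG1 peak, KO shares at unmarked regions were low. They were 0.716%, 1.05%, 1.25%, 0.326% and 0%, weakest bin first, against backgrounds of 9.03%, 16.1%, 28.6%, 46.8% and 62.1%, and the last rests on 44 regions, for which the exact interval reaches 8.04%. Regions with both marks had higher shares in stronger bins, at 24.7%, 32.9%, 45.1%, 58.0% and 67.5%. KO depth was lower than WT depth, as given above, and at median background a KO summit needed 22 fragments in library 1 and 18 in library 2. The part of depth in these low shares was not tested. Most of the 43 calls came from the KO group list. Within single KO libraries the difference from H3K27ac regions without BRG1 was -0.108 points in library 1 and -1.03 in library 2, and no region of either class was called in both.

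**Figure D5:**
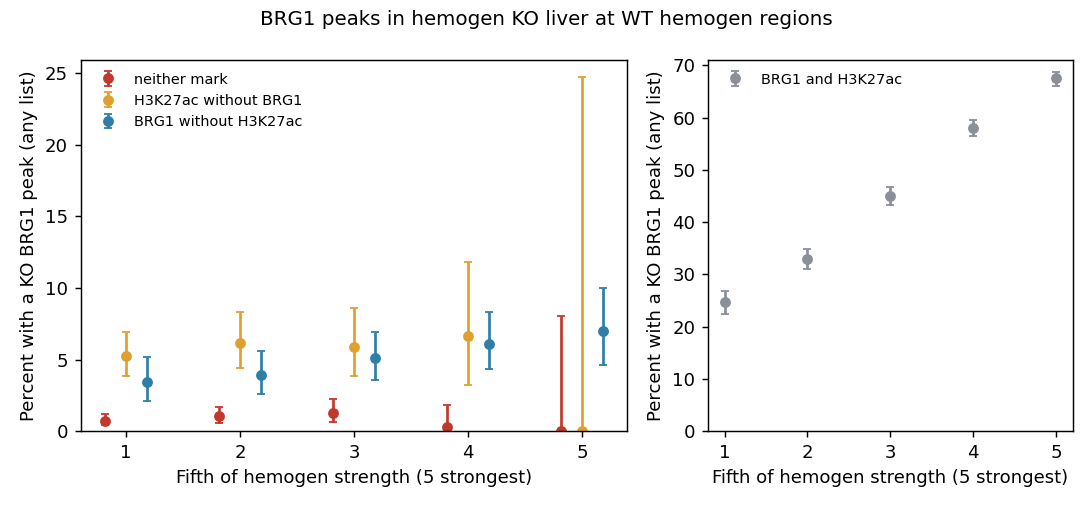
Percent of WT hemogen regions with a BRG1 peak in any KO list (y axis) by bin of hemogen strength (x axis, 1 weakest to 5 strongest), with exact 95% binomial intervals. Left, unmarked regions (red), H3K27ac without BRG1 (yellow) and BRG1 without H3K27ac (blue). Right, regions with both marks on a larger scale. Unmarked regions stay between 0% and 1.25%.

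The 43 unmarked regions with a KO BRG1 peak were spread over 16 chromosomes, and 40 overlapped 1 KO list and 3 overlapped 2. The KO peaks had authors' folds of 3.03 to 6.28 and a median percentile of 35.3 within their lists. Their summit lay inside the hemogen region in 32 of the 43. The KO peak itself reached a WT BRG1 peak in 1 case. An H3K27ac peak lay within 1 kb of 24 of the 43, against 37.6% of all unmarked regions. A WT BRG1 peak lay within 1 kb of 15 of the 43, against 24.1% of all unmarked regions.

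The strongest of them, chr17:35997051-35997533, had hemogen folds of 5.42 and 3.64 and a KO fold of 4.36 in the group list, with 21 fragments, and another hemogen region began 9 bp away. The second, chr7:30664445-30664969, was called both in KO library 1 (fold 5.76, 15 fragments) and in the group list (5.16). Its hemogen folds were 5.14 and 4.22, and a WT BRG1 peak lay 244 bp away. At chr10:45129869-45130371 the KO group list gave a fold of 3.9 and hemogen had 5.90 and 3.15. At chr11:102308881-102309418 the KO fold was 3.92 and the hemogen folds were 3.57 and 4.77. The last of these 5, chr2:158175182-158176059, was called in KO library 1 alone (fold 5.92), with an overlap of 48 bp and hemogen folds of 5.21 and 4.36. All 5 had an H3K27ac peak close by, at 37 to 442 bp.

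Leaving out 1 hemogen library, so that single peaks counted as regions, gave 12262 unmarked regions without library 1 and 20108 without library 2. The KO share was 1.71% when WT BRG1 library 1 and the BRG1 group list could not exclude a region. It was 1.74% and 1.43% when the H3K27ac group list and H3K27ac library 1 or library 2 could not. The difference from H3K27ac regions without BRG1 was -13.8 and -10.2 points with WT BRG1 library 1 or 2 left out in this way, and -7.53 and -7.28 points with H3K27ac library 1 or 2 left out. These settings also changed that class, since regions with a BRG1 peak only in the omitted lists entered it. It held 6484 and 4576 regions without WT BRG1 library 1 or 2, with KO shares of 15.5% and 11.5%. Without H3K27ac library 1 or 2 it held 561 and 872, with 9.27% and 8.72%. The larger differences thus do not describe the same classes.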

How the data were processed

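ChIP-seq peaks came from mouse fetal liver. Per the submitters' processing notes, the tools were MACS2 2.2.7.1, Picard 2.21.4, SAMtools 1.9 and Bowtie2 2.3.5, and their roles are not stated there. Build, filters and control libraries: not given in the sources used here. The authors deposited a peak list for each of 8 libraries and 4 groups; in the deposited lists each peak has a −log10 p, a −log10 q (not used for group lists), a fold or ratio over local background and a summit offset in bp. How libraries were combined into group lists is not stated. These values describe peaks within a list and are the authors' own.

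Groups came from sample titles. Regions, classes and the KO comparison follow the rule in the report; KO overlap means at least 1 bp with a peak of any KO list. Strength averages the percentile ranks of −log10 p in the 2 hemogen libraries. The named regions were the 10 strongest, the 5 strongest with a KO BRG1 peak and the 5 strongest with no mark within 100 kb, 1 region counting in 2 of these sets. Members and lists were chosen with earlier results of these data known.

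Summit heights assume fold = (scaled height + 1)/(background + 1) and an upper Poisson tail for p. Heights were accepted when exactly 1 solution was whole within 0.01, which held for 95.9% to 99.7% of peaks per list. On simulated peaks in 4 settings, 100% of accepted heights were right, and interval overlaps showed 0 differences from direct comparison. The simulated peaks were made with the same assumed formula, so they check the arithmetic and cannot check the formula itself. Relative depth was the lowest background divided by the shortest peak width and by the scale.

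A mouse genome and annotation were not used here, so genes, promoters, sequences and motifs were left out. Regions are not replicates, and separate animals are not stated for the libraries, so spreads may be technical. The 12 K562 libraries were not analysed here. Software was Matplotlib 3.10.9, SciPy 1.17.1, pandas 2.3.3, NumPy 2.4.6 and Python 3.11.15.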

Additional observations from a re-analysis of the deposited data

Results flagged for a closer look

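Hemogen peaks also lay on sequences outside the 19 autosomes and chromosome X, which the rule leaves out: 8 peaks in HA library 1 and 5 in HA library 2. They are listed because no comparison above uses them, and their numbers were not tested. On these sequences 3 merged regions held a peak of each library, and 2 of them overlapped no BRG1 or H3K27ac peak. One lay on the unplaced sequence chrUn_GL456370, with authors' folds of 4.27 in both libraries. The other lay on chromosome Y, with 1.95 and 1.82. No explanation was tested.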

How the results depend on the processing

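No paired analysis was possible because no result here comes from a test between groups. Wherever 1 library is left out below, the group list of the same kind is left out too, so that only the other library list is used. The number of unmarked regions, 4844 as reported, was 7669 with library lists only, 1097 at a minimum −log10 q of 5 in the hemogen lists, 2650 with no mark allowed within 1 kb, 12543 when only BRG1 and H3K27ac regions found in both libraries could exclude, and 6071 to 20108 with 1 library left out. Median strength was 68.5 at that q, 49.7 with marks found in both libraries and 31.5 to 47.0 with 1 library left out. The KO share was 2.03% with library lists only, 0.604% with the 1 kb margin, 6.11% with marks found in both libraries, 0% where both KO libraries had to call it, and 0.0826% to 1.74% with 1 library left out. Its difference from H3K27ac regions without BRG1 was -8.89, -2.79, -19.8 and 0 points in the same 4 settings and -13.8 to -0.108 with 1 library left out. The median distance to the nearest mark, 1296 bp as reported, was 2313 bp with library lists only, 1699 bp at the higher q, 4996 bp with the margin, 909 bp at 50% overlap, 9091 bp with marks found in both libraries and 917 to 3819 bp with 1 library left out. Fewer lists, or a margin, change these counts by construction. Fewer BRG1 or H3K27ac lists, or a margin, also change which regions form the class with H3K27ac but no BRG1. The higher q raises strength by construction too, since strength ranks −log10 p. At 50% overlap, regions that touch a mark by less count as unmarked, which shortens the distance. The cause of other moves was not tested. Group lists alone, and marks found in both libraries, were chosen after seeing the data, as was the difference. Of the 19 named regions, 10 remained with the margin and 18 or 19 in each other setting. Their strength moved in 10 of 217 comparisons, all with 1 hemogen library left out. At chr10:45129869-45130371 it was 69.1 as reported, 50.0 without library 1 and 88.2 without library 2. Promoter windows, gene lists and motif windows were not run. Depth limits every absence: KO libraries had 0.404 and 0.341 of the depth of WT BRG1 library 1.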
